A study of Homo sapiens with 3 samples.

Results

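The neighbouring noncoding RNA genes *NEAT1* and *MALAT1* on chromosome 11 were examined for occupancy by the PRCC-TFE3 fusion protein. All peaks of the deposited lists that lay between positions 65180000 and 65290000 of chromosome 11 (hg19) were taken. The window is bounded by position alone, but it was picked with earlier results of these data known. Within it, *NEAT1* extends from 65190269 to 65213011 and *MALAT1* from 65265233 to 65273940, both on the plus strand. Overlapping peaks (1 bp or more) of the ChIP replicates were joined into regions, which are termed shared where both replicates contributed a peak. The window held 38 of the 117702 regions of the whole data set.

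Chromatin immunoprecipitation sequencing (ChIP-seq) was performed on HK-2, an immortalised cell line derived from the human proximal tubule. The cells carried an HA-PRCC-TFE3 transgene that is expressed in the presence of doxycycline, and every library came from cells given 0.2 µg/mL of the drug over 24 h. There were 2 HA ChIP libraries, replicate 1 with 12235754 tags and replicate 2 with 7418533 tags, and 1 input DNA library with 21695257 tags, as estimated from the lists. Whether the line was a single clone is not given in the sources used here. Uninduced cells and untagged cells were not analysed here, so differences between libraries are differences between replicates of 1 group, and a peak is described only against input DNA and its surroundings.

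*NEAT1* encodes an architectural RNA on which paraspeckles, a class of nuclear body, assemble. A short and a long isoform begin at the same start. *MALAT1* encodes an abundant RNA that is retained in nuclear speckles, and its 3' end is cut to release the small tRNA-like mascRNA. Both RNAs are mostly unspliced and stay in the nucleus. TFE3 belongs to the MiT/TFE family of basic helix-loop-helix leucine zipper factors, which bind E-box motifs. In RefSeq, the loci *FAUP4*, *ENEMAL* and *LINC02736* are listed between both genes, and *TALAM1* is listed next to *MALAT1* as an antisense RNA. No hg19 annotation was used, so peaks were not assigned to these loci.

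PRCC-TFE3 peaks were numerous in the window, fell into clusters separated by stretches of up to 16.0 kb without a listed peak, and reached their highest fold enrichment outside the transcribed bodies. The narrowPeak list, the output layout of the peak caller MACS, held 38 peaks in replicate 1 and 27 in replicate 2. Of the 38 merged regions, 24 were shared, 12 were found in replicate 1 only and 2 in replicate 2 only. The shared part was 63.2%, compared with 59.8% of all regions in the data set, so the window did not stand apart in that respect. Peaks were 3.45 per 10 kb in replicate 1 and 2.45 per 10 kb in replicate 2. Over chromosomes 1 to 22 and X, the same densities were 0.360 and 0.268. Shared regions were thus 9.41 times as dense in the window as on these chromosomes as a whole.

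The density was also set against equal tiles. Chromosomes 1 to 22 and X were divided into 27603 tiles of 110 kb, and the number of shared regions in each was counted. The median tile held 1 shared region and the richest held 29. The window held 24, and 11 tiles (0.0399%) held at least as many. Since the window was picked with earlier results known and was not placed on the grid of tiles, this describes its density and is not a test. With stricter peaks (−log10 q of at least 5) the share of tiles that held at least as many was 0.109%, and with the BED lists it was 1.33%.

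**Figure D1:**
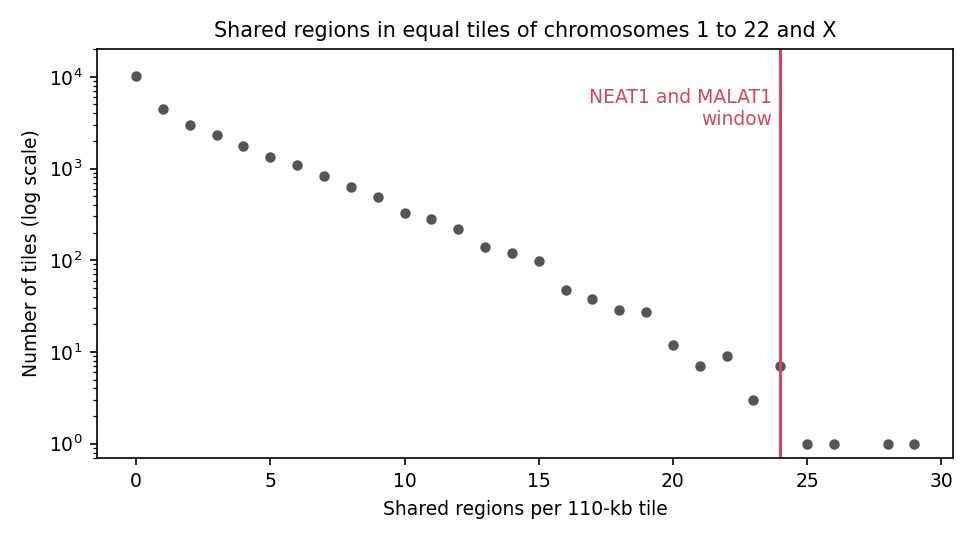
Number of 110-kb tiles of chromosomes 1 to 22 and X (vertical axis, log scale) by the number of shared regions they hold (horizontal axis), each point being 1 count of regions. The vertical line marks the 24 shared regions of the *NEAT1* and *MALAT1* window, a number reached or exceeded by 11 tiles.

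Regions were then assigned to 5 positions by their strongest summit. Upstream of *NEAT1* there were 5 regions (4 shared), in the *NEAT1* body 10 (3 shared), between the genes 16 (12 shared), in the *MALAT1* body 2 (1 shared) and downstream of *MALAT1* 5 (4 shared). Of the replicate 1 peaks outside the gene bodies, 21 of 26 overlapped a replicate 2 peak, while 65.7% of all replicate 1 peaks in the same range of fold enrichment did so. Of those inside the gene bodies, 5 of 12 did so, against 48.3% of the list in their range. In the other direction, 4 of 5 replicate 2 peaks inside the bodies overlapped a replicate 1 peak, against 75.1% of the replicate 2 list in their range. Outside the bodies 21 of 22 did so, against 89.9%. These shares were not tested against each other. The median fold enrichment of the replicate 1 peaks was 4.81 inside the bodies and 9.09 outside. The list peaks in the same ranges had medians of 5.88 and 7.49, so these comparisons are not matched on strength. Replicate 2 had 0.606 times the tags of replicate 1. Weak peaks that were listed in 1 replicate cannot be taken as absent from the other.

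**Figure D2:**
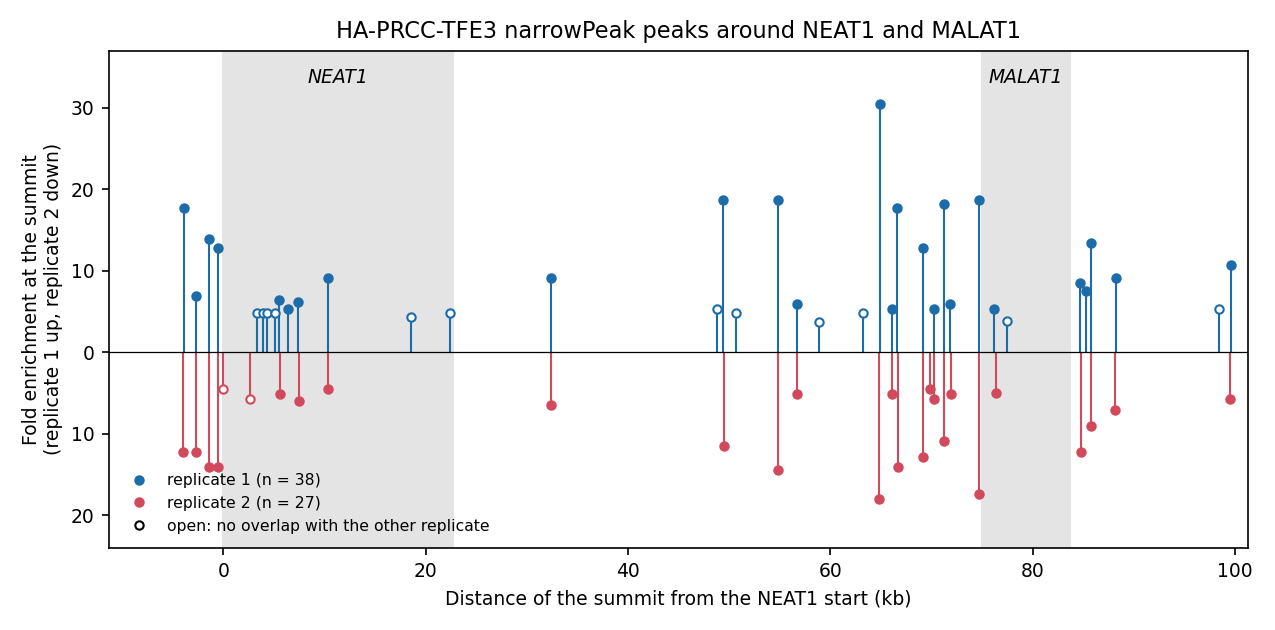
Fold enrichment at the summit of each narrowPeak peak (vertical axis, replicate 1 upward and replicate 2 downward) against its distance from the *NEAT1* start in kb (horizontal axis). Grey areas are the gene bodies. Filled points overlap a peak of the other replicate and open points do not. The highest peaks, at 30.5 and 18.1, lie between the genes, and the peaks within the gene bodies are at or below 9.09.

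Upstream of *NEAT1*, 4 shared regions lay within 5 kb of the start. Their summits in replicate 1 were 3919, 2713, 1432 and 532 bp before the start. Fold enrichment, the ratio at the summit that the peak caller gave, was 17.7, 6.95, 13.9 and 12.8 in replicate 1 for these regions. It was 12.2, 12.2, 14.1 and 14.1 in replicate 2. The list medians were 7.49 and 7.32, so only the region around −2.7 kb was below the median, and only in replicate 1. By the lower of both fold values, the strongest of these regions extended from 65188630 to 65189074, with 25 and 23 tags in its BED peaks. The region closest to the *NEAT1* start among the shared ones extended from 65189582 to 65189944 and had 24 and 21 tags.

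At the *NEAT1* start itself there was a single weak peak. It extended from 65190158 to 65190517 in replicate 2, with its summit 17 bp before the start, a fold enrichment of 4.49 and a −log10 q of 3.42. Replicate 1 had no narrowPeak peak there, and neither BED list had one. The shared region nearest to the start ended before reaching it.

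The *NEAT1* body contained weaker peaks, which were concentrated in its 5' part. Replicate 1 had 10 peaks with fold enrichments from 4.31 to 9.09 and a median of 4.81, and replicate 2 had 4 peaks from 4.49 to 6.01 with a median of 5.45. The 3 shared regions had replicate 1 summits at 5.55, 7.41 and 10.4 kb after the start. Their fold enrichments were 6.42, 6.22 and 9.09 in replicate 1, and 5.13, 6.01 and 4.49 in replicate 2. The 10.4-kb region was the only one in the body with a BED peak, which had 16 tags and 0 input tags in replicate 1. In the 3' part, no peak of either replicate was listed over 8.03 kb, from 10.5 to 18.5 kb after the start, which is 35.3% of the gene. The 2 peaks beyond this stretch, at 18.6 and 22.4 kb, were found in replicate 1 alone, with fold enrichments of 4.31 and 4.81. No summit lay within 5 kb after the *NEAT1* end.

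The region between the genes contained the strongest sites. Replicate 1 had 16 peaks with a median fold enrichment of 7.49, and replicate 2 had 13 with a median of 10.9. Going from *NEAT1* to *MALAT1*, the shared regions began with an isolated one 32.4 kb after the *NEAT1* start, with fold enrichments of 9.09 and 6.42. It was followed by 16.0 kb without a listed peak, the longest such stretch in the window. The next strong regions were at 49.4 kb, with fold enrichments of 18.7 and 11.6, and at 54.8 kb, with 18.7 and 14.4. These had 35 and 17 tags in the former and 38 and 23 tags in the latter.

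Within 5 kb before the *MALAT1* start there were 4 regions, all shared. Within 11 kb, a limit set after the values were seen, there were 8, also all shared, and the next region, 11694 bp before the start, was found in replicate 1 alone with a fold enrichment of 4.81. The most enriched region of the window was the outermost of these 8. It extended from 65254903 to 65255532, with summits 10089 and 10111 bp before *MALAT1*. Its fold enrichment was 30.5 in the former replicate and 18.1 in the latter. Only 0.976% of the replicate 1 list and 7.41% of the replicate 2 list had a fold enrichment at least as high. Its BED peaks held 61 and 37 tags, equal to 49.9 tags per 10000000 in each library, and 0 input tags. By tag count it was number 3 of the 3065 BED peaks on chromosome 11 in replicate 1 and number 29 of 2299 in replicate 2. Nearer to *MALAT1*, the region 8401 bp before the start had fold enrichments of 17.7 and 14.1, and the one 3748 bp before it had 18.2 and 10.9. Between these lay the region 5831 bp before the start. Its fold enrichment was 12.8 in each replicate, in the top 20.7% of the replicate 1 list and the top 18.2% of the replicate 2 list.

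At *NEAT1* the nearest shared region ended before the start, whereas at *MALAT1* a strong shared region reached over the start used here from upstream. This *MALAT1* region extended from 65264729 to 65265383, with summits 269 bp and 277 bp before the start in replicates 1 and 2. Its peaks ended 150 bp and 58 bp after the start. Its fold enrichments were 18.7 and 17.4, and its BED peaks had 40 and 29 tags against 0 and 1 input tags. By the lower of both fold values it was the second strongest region of the window. The promoter table of RefSeq (GRCh38.p14) matched 1 of the 2 gene symbols, *MALAT1*, with 2 starts that are 1307 bp apart, and each entry covers 250 bases before and 50 after the start. They are shown because the strong region overlapped the *MALAT1* start and a weak shared region lay behind it. If 1 of them is the start used here, its sequence does not reach the summits, 269 bp and 277 bp before that start. The first is at chr11:65497488-65497787 and the other at chr11:65498795-65499094, plus strand, in GRCh38.p14. These positions are in another build than the peaks, none was converted, and which start corresponds to that in hg19 was not determined here. Capitals mark motif matches.
MALAT1 outer start: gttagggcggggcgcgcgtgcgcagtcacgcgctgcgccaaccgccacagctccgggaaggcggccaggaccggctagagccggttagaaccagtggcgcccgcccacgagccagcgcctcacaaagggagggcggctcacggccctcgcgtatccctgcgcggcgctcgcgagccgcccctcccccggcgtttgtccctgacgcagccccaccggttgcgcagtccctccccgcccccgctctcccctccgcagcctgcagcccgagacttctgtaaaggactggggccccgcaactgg
MALAT1 inner start: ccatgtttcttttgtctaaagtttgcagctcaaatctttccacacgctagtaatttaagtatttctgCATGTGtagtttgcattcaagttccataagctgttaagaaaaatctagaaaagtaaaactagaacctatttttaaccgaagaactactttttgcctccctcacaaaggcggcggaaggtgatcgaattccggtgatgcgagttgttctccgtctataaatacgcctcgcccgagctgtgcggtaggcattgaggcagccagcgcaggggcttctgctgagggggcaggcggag
The outer sequence was 73.7% G and C, and the inner one 46.0%. Searched on both strands were CACGTG (E-box), TCACGTGA (the longer E-box of the MiT/TFE family, which holds the former motif), CATGTG (an E-box variant) and TGANTCA (AP-1). The outer sequence held none of them. The inner sequence held CATGTG once, beginning 183 bases before that start, and a match of this kind occurred in 11.1% of the 35116 promoters of the table. CACGTG occurred in 7.26%, TCACGTGA in 0.980% and TGANTCA in 7.71% of the promoters. These are matches of letters and not sites, and nothing follows from their absence in such short windows.

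Inside the *MALAT1* body only 1 weak region was shared. It extended from 65266242 to 65266796, with summits 1214 bp and 1415 bp after the start and fold enrichments of 5.27 and 5.02. Replicate 1 had 1 more peak, 2533 bp after the start, with a fold enrichment of 3.84. From 2.64 kb after the start to 71 bp beyond the end no peak was listed in either replicate, a stretch that takes up 69.7% of the gene body. Peaks resumed just after the end. The summits of 3 shared regions lay within 5 kb of it, with fold enrichments from 8.56 to 13.4 in replicate 1 and from 7.06 to 12.2 in replicate 2. The most enriched of these by the lower of both values extended from 65275412 to 65276253, with values of 13.4 and 9.03. Its matched BED peaks had 25 and 16 tags. A last shared region at the edge of the window, 99.6 kb after the *NEAT1* start, had fold enrichments of 10.7 and 5.78.

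Per length, the gene bodies compared as follows. *NEAT1* had 0.440 peaks per kb in replicate 1 and 0.176 in replicate 2, and *MALAT1* had 0.230 and 0.115. The ratio was 1.91 in replicate 1 and 1.53 in replicate 2, but it rests on 10 and 4 peaks against 2 and 1 and was not tested. The order differed when 2 kb before each start was added and tags in BED peaks were counted. *MALAT1* then had 3.05 and 3.65 tags per 10000000 and per kb, and *NEAT1* had 2.15 and 2.40. In the bodies alone these values were 0.575 and 0 for *NEAT1* and 0 in both replicates for *MALAT1*. The order depends on gene length, since the bodies are 22.7 kb (*NEAT1*) and 8.71 kb (*MALAT1*) long. The 2 kb before *NEAT1* held BED peaks of 25 and 24 tags in replicate 1 and of 23 and 21 tags in replicate 2. The 2 kb before *MALAT1* held a BED peak of 40 tags in replicate 1 and of 29 tags in replicate 2.

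**Figure D3:**
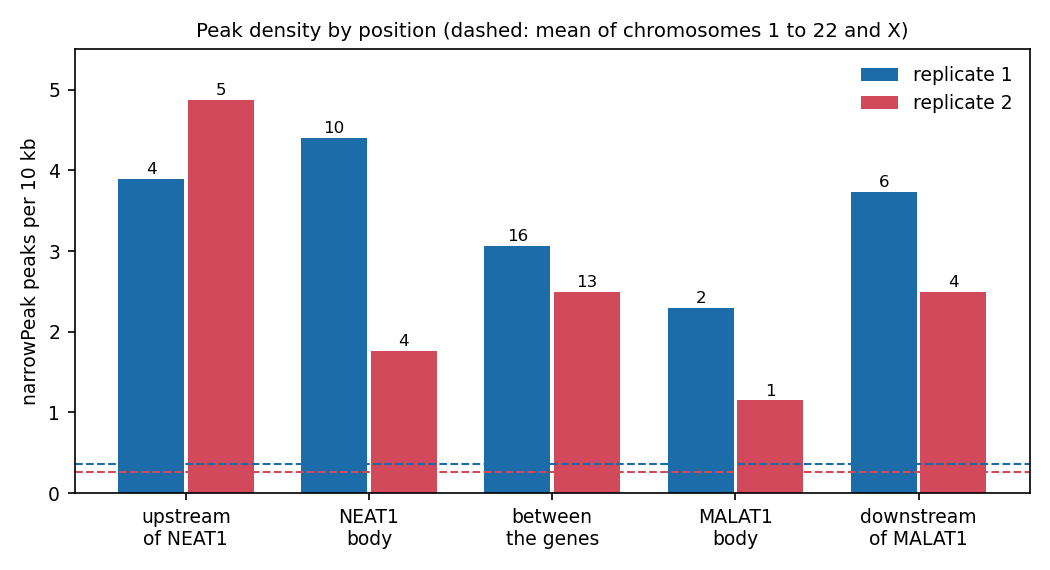
narrowPeak peaks per 10 kb (vertical axis) at 5 positions (horizontal axis) in replicate 1 and replicate 2, with the number of peaks above each bar. Dashed lines are the means of chromosomes 1 to 22 and X, 0.360 and 0.268, and every bar lies above them.

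The split of tags between the replicates was examined at the 11 BED peaks of the window that were matched between them. Peaks listed in 1 replicate only do not enter this comparison, so it leaves out the sites at which the replicates could differ most. Replicate 1 had 347 tags and replicate 2 had 224, a share of 39.2% (95% Wilson interval, 35.3% to 43.3%), compared with 39.8% over all 55655 matched peaks. Its share ranged from 32.7% at 49.4 kb to 47.9% at −1.4 kb. In a two-sided exact binomial test, with Benjamini-Hochberg adjustment over all matched peaks, no peak of the window was called. The smallest p was 0.302, its adjusted p was 1, and 0 of 11 had an unadjusted p under 0.05. Over the data set 0% of the matched peaks were called, and 2.2% had an unadjusted p under 0.05. With no call anywhere in the data set, the absence of calls in the window says nothing particular about these sites. The test compares 2 libraries, and its intervals cover counting error only. At the 26 replicate 1 peaks that overlapped replicate 2, summits were a median of 46.5 bp apart, and 21 were within 100 bp. Overlap itself limits this distance, and it was not computed over the whole lists, so it cannot be called particular to the window.

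**Figure D4:**
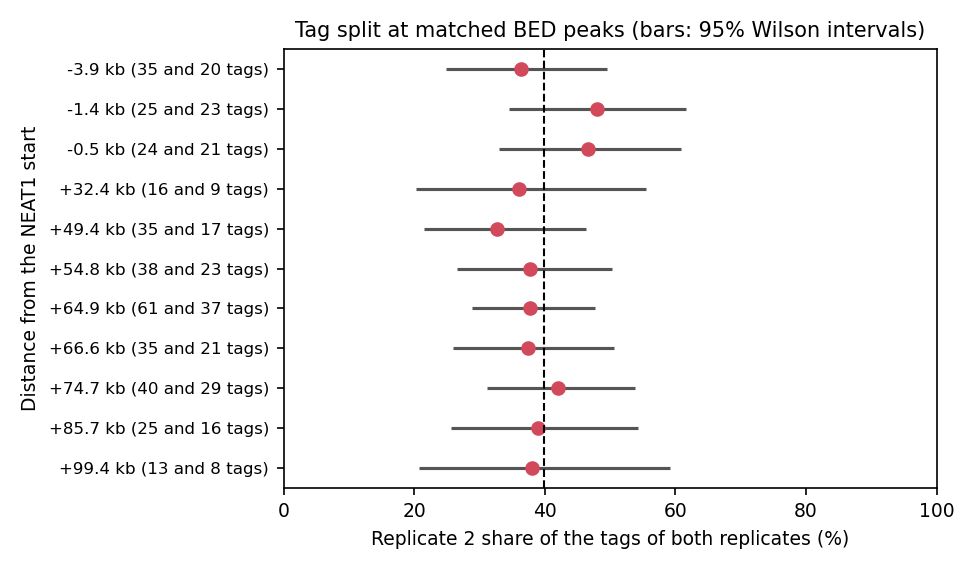
Share of replicate 2 in the tags of both replicates (horizontal axis, percent) at each of the 11 matched BED peaks (vertical axis, distance from the *NEAT1* start, with the tags of replicates 1 and 2). Points are shares, bars are 95% Wilson intervals and the dashed line is the share over all matched peaks, 39.8%, which every interval contains.

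The surroundings of the peaks were themselves rich in ChIP tags. A local background was obtained for each BED peak by dividing its tags by the fold over the local background, and it is given as tags per peak window and 10000000 library tags. How far around a peak it reaches is not given in the sources used here. This background may take in tags of neighbouring peaks, so it cannot be read as separate from the peak density, and their part was not tested. Its median was 3.14 in replicate 1 and 3.77 in replicate 2 for the peaks of the window, compared with 1.20 and 1.28 over the whole lists. It was highest in the cluster before *MALAT1*, at 4.97 for the peak at 66.6 kb in replicate 1 and at 5.87 for the peak at 69.2 kb in replicate 2. Each of these was the highest local background of any BED peak on chromosome 11 in its replicate. The values before the *NEAT1* start, from 3.28 to 4.16 in replicate 1 and from 4.27 to 4.85 in replicate 2, were also raised. Above the 90th percentile of the list were 9 of 15 peaks in replicate 1 and 11 of 15 in replicate 2. In contrast, the isolated peak at 32.4 kb had local backgrounds of 0.625 and 0.526, below the list medians, and the strong peaks at 49.4 and 54.8 kb had values from 1.22 to 1.61, close to them.

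**Figure D5:**
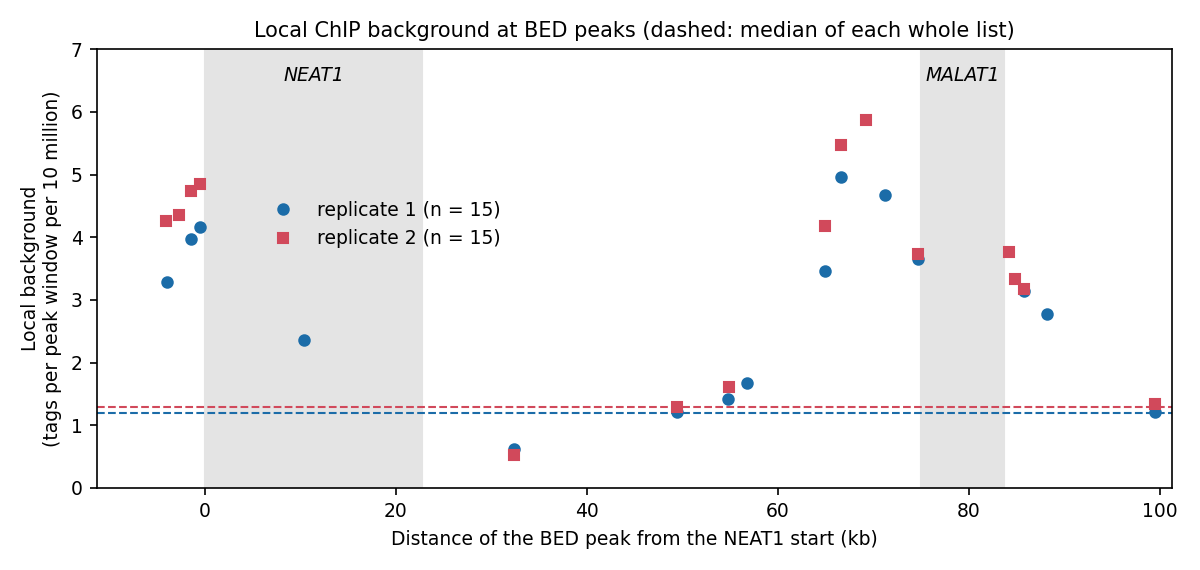
Local ChIP background at the BED peaks of the window (vertical axis, tags per peak window per 10000000 library tags) by distance from the *NEAT1* start in kb (horizontal axis). Circles are replicate 1 and squares replicate 2, grey areas are the gene bodies, and dashed lines are the medians of the whole lists, 1.20 and 1.28. Values rise to 4.97 and 5.87 in the cluster before *MALAT1*.

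The lowest fold over the local background in either BED list was 4. A BED peak of the same library was present at 15 of the 38 replicate 1 narrowPeak peaks in the window (39.5%) and at 14 of the 27 of replicate 2 (51.9%). In the whole lists these shares were 74.6% and 74.9%. Among peaks above the median fold enrichment of their list, the shares were much closer, with 14 of 16 (87.5%) and 12 of 13 (92.3%) in the window and 96.2% and 96.5% in the lists. Among the remaining peaks, at or below that median, the shares in the window were far below those in the lists in both replicates. In the gene bodies 1 of 12 and 0 of 5 narrowPeak peaks had a BED peak. The part of the raised surroundings, or of low fold enrichment, in these numbers was not tested.

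Input DNA showed no peak in the window. Its whole list held 286 peaks, of which 9 were on chromosome 11, the nearest being 10.2 Mb away. With so few input peaks, most windows of this length hold none, so their absence says little about this window. The 15 BED peaks of replicate 1 had 4 input tags in all, a mean of 0.267 per peak (95% exact Poisson interval, 0.0727 to 0.683). The mean was 0.555 on chromosome 11 and 0.874 over the whole list. The 15 BED peaks of replicate 2, which were set against the same input library, had 9 input tags, a mean of 0.600 (0.274 to 1.14), compared with 0.559 and 0.876. Of these, 3 belonged to a peak just downstream of *MALAT1* that the BED list of replicate 1 lacked, although a narrowPeak peak of that replicate covered it. The interval of replicate 1 contained the chromosome 11 mean but not that of the whole list, and the interval of replicate 2 contained both. At this depth 12 and 9 of the 15 peaks had 0 input tags (80% and 60%). On chromosome 11 the shares were 59.7% and 60.8%, and over the whole lists 46.1% and 46.9%. The intervals cover counting error only.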

How the data were processed

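HA-PRCC-TFE3 ChIP-seq lists of 2 replicates and 1 input DNA library from doxycycline-treated HK-2 cells were used, grouped by their labels. According to the methods of the study, chromatin was digested with micrococcal nuclease and peaks were called with MACS in Strand NGS against input DNA. Peaks were called per sample. The methods also give a p-value threshold, which was not applied again here, and whether the deposited lists follow it was not determined. The lowest −log10 p of a narrowPeak peak in the window was 4.46, in replicate 1. The aligner and the handling of duplicates are not given in the sources used here. The build is hg19 in the submitters' processing notes.

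The deposited narrowPeak lists held a fold ratio, −log10 p and −log10 q values and a score of 10 times −log10 q. Header names of the authors' BED lists were displaced, and columns were read by position, following the layout of HOMER, which the sources used here do not name. The deposited tag count per peak was not normalized, and the deposited signal was that count scaled to 10000000 library tags. Fold ratios and p-values over input and over local background were also deposited, as was a fraction that was not used. Totals of the ChIP libraries were the sum of tag counts over the sum of scaled signals. The input total was estimated from the worth of a single input tag in the fold over input, as the mean of both ChIP lists. Input tags were recovered from tag count and fold over input, and 100% came out whole within 0.05 of a tag, or 1% of the value where that was larger. Values read as 0 tags, 46.1% and 46.9% of the replicate 1 and 2 lists, counted as whole by definition.

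Regions, tiles and matches were computed in Python 3.11.15 with pandas 2.3.3 and scipy 1.17.1. Matched BED peaks were mutual best overlaps. The binomial test was tested on simulated data, with known shifts placed only in peaks above a minimum number of tags. Several of the matched peaks of the window were below that minimum, so the simulation does not cover them. Peaks named by rule were the strongest shared region of each position, by the lower of both fold values, and those within 1 kb of a gene start. Fold values come from libraries of unlike depth and are strictly comparable only within a list. Further regions were named after their values were seen. The members and lists were chosen with earlier results of these data known. The study describes the ChIP libraries as biological replicates, while the labels do not say whether they came from separate cultures. A list of paraspeckle protein genes was not analysed here, since no hg19 annotation was used.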

Additional observations from a re-analysis of the deposited data

How the results depend on the processing

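Among the alternatives, 28 values changed little (a factor of 1.5 for counts, the interval or the spread between replicates for other values) and 17 changed by more. The BED lists gave 19 regions in the window, of which 11 were shared, against 38 and 24 with the narrowPeak lists. By position they gave 0 shared regions in the *NEAT1* body, 6 between the genes, 0 in the *MALAT1* body and 2 downstream of it. With −log10 q of at least 5 in both lists, 1 shared region was left in the *NEAT1* body and 0 in the *MALAT1* body. Assignment by any overlap with a gene gave the *MALAT1* body 2, because the region over the start was then counted there. The share of tiles with at least as many shared regions was 0.109% with −log10 q of at least 5 and 1.33% with the BED lists. Ranked by −log10 p, the strongest region was in the top 1.15% and 5.64% of the lists of replicates 1 and 2, and ranked by BED tag count in the top 1.61% and 4.44%. With 2 kb before the start, mean BED tags per 10000000 and per kb were 2.27 for *NEAT1* and 3.35 for *MALAT1*, against 0.287 and 0 in the bodies. The order of the former 2 values depends on the length of the genes. Leaving out either replicate left 27 or 38 regions. No paired analysis was possible because both ChIP libraries belong to 1 group and input DNA has a single unnumbered library. Replicate 2 had 0.606 times the tags of replicate 1, so a weak peak listed in 1 replicate cannot be told from one missed at the depth of the other.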
